A study of Mus musculus with 5 samples.

Results

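The SR splicing factors are RNA-binding proteins that carry an RNA-recognition motif and a tail rich in arginine-serine dipeptides, and the family described here consists of Srsf1, Srsf2, Srsf3, Srsf4, Srsf5, Srsf6, Srsf7, Srsf9, Srsf10 and Srsf11. The members were chosen by gene symbol in the gene tables of the libraries, which gave 10 genes of the 46078 gene identifiers in each table. SR proteins bind exonic enhancers and recruit the spliceosome to nearby splice sites. The kinases of the SRPK and CLK families phosphorylate the tail, which governs nuclear import, storage in nuclear speckles and release to sites of transcription. Most SR genes limit their own expression through a poison exon or a retained intron, whose inclusion gives a transcript that is removed by nonsense-mediated decay. In neural stem cells SR proteins are known as parts of the splicing programmes that accompany proliferation and differentiation.

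The cells were neural stem and precursor cells (labelled NPC) of the subventricular zone, the germinal region along the lateral ventricles of the adult mouse forebrain. The mice are labelled C57BL/6, female, 5 to 8 weeks old and without mutation, while the study's methods give a higher age range for this culture. The cells were grown as neurospheres, plated on poly-D-lysine and given PBS, a buffer that serves as the sham exposure in place of hydrogen peroxide. RNA was taken 1 h after PBS in 2 libraries (replicates 1 and 2) and 8 h after PBS in 3 libraries (replicates 13, 14 and 15), so that time after PBS is the difference the labels give. All libraries share the culture and the PBS, and none was left without PBS. One animal made up a biological replicate according to the methods, but no label ties a library to an animal, and p-values measure the spread between these libraries only. In bulk RNA, fewer cells of a type and less RNA per cell cannot be told apart.

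The libraries fell into 2 sets that cross the time points in part. Their identifiers run in number series 1 (both 1 h libraries and 8 h replicate 14) and series 2 (8 h replicates 13 and 15). No source used here says what the series stand for. The 8 h columns of the count table did not match the 8 h TPM tables of the same names, as given with the counts, and the series follow those names. The labels name all mice female, yet Y-linked transcripts (4 genes) summed to between 138 and 181 TPM in the series 1 libraries and to at most 0.0253 TPM in the series 2 libraries, which held Xist at 165 and 199.7 TPM. Mitochondrial genes held 10.7 to 11.1% of TPM in series 1 and 6.23 to 6.30% in series 2. TPM is a transcript's share of the library, corrected for its length, so levels of different genes can be set side by side. All 8 markers of neural stem and precursor cells had a mean TPM of at least 1, from 12.9 for Pax6 to 8582 for Fabp7. Of 5 microglial markers none reached a mean of 1 TPM and 2 were listed at 0 in every library. Markers of the oligodendrocyte lineage (7 genes) summed to 1857 and 2248 TPM at 1 h and to 2126, 1613 and 2442 TPM at 8 h. Olig1 and Olig2 were the highest of them, with means of 1345 and 536 TPM, beside 23.4 TPM for Mbp. The summed level of 6 mature astrocyte markers at 1 h was 604 and 711 TPM, beside 1007, 585 and 1018 TPM in replicates 13, 14 and 15 at 8 h. Most of that sum was Aldh1l1, with 467 and 581 TPM at 1 h and 724, 455 and 668 TPM at 8 h. The summed level of 6 neuronal markers was 77.4 and 78.0 TPM at 1 h and 48.1, 74.9 and 53.4 TPM at 8 h. Its largest part was Tubb3, with 39.8 and 42.9 TPM at 1 h and 19.0, 37.4 and 19.3 TPM at 8 h. Not all of these markers were lower at 8 h. Snap25 had means of 10.5 TPM at 1 h and 13.2 TPM at 8 h, and Dcx of 5.95 and 6.06 TPM. The part of the identifier series, sex-linked transcripts and these markers in the results below was not tested.

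The promoters of Srsf5, Srsf7 and Srsf3 are shown because Srsf5 and Srsf7 had the smallest p-values of the family and Srsf3 the highest mean level. Each is the 250 bases before the RefSeq start of the gene (GRCm38.p6), 5′ to 3′ on the strand of the gene. Srsf5 lies on chromosome 12 (chr12:80945249-80945498, plus strand), Srsf7 on chromosome 17 (chr17:80207306-80207555, minus strand) and Srsf3 on chromosome 17 (chr17:29032410-29032659, plus strand). Capitals mark matches, on either strand, to any of the 6 motifs searched. The first was the TATA box, spelled TATAAA. The next was the CCAAT box. A piece of the cyclic AMP response element was spelled TGACG. The core bound by ETS factors was spelled CCGGAAG. The E-box was spelled CACGTG. The GC box was spelled GGGCGG.
Srsf5: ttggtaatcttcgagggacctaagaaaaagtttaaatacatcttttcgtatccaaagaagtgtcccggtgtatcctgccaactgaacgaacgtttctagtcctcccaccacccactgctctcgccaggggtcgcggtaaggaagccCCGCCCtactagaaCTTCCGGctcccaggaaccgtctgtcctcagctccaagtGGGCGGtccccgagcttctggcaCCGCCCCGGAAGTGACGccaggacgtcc
Srsf7: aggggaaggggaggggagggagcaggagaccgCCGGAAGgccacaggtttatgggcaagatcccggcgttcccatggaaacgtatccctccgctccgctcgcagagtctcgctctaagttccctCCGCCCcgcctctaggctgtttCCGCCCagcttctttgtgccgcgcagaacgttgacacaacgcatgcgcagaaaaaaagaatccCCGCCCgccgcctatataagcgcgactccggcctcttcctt
Srsf3: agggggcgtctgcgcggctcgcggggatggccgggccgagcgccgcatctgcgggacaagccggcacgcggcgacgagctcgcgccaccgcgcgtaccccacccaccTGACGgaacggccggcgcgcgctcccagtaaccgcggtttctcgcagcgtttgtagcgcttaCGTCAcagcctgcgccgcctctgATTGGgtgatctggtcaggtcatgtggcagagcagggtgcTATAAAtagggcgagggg
A GC box at bases 28 to 23 before the start of Srsf5, an ETS core at bases 23 to 17 and a TGACG at bases 16 to 12 stood side by side, with the GC box and the ETS core sharing 1 base. Over the family, the GC box was found in 9 of 10 promoters, against 32.7% of 32841 promoters of the same length. TGACG was found in 6 (Srsf1, Srsf3, Srsf5, Srsf6, Srsf10 and Srsf11), against 17.8%, and the ETS core in 4 (Srsf4, Srsf5, Srsf7 and Srsf11), against 6.91%. TATAAA was found in Srsf2 and Srsf3, which are 2 of 10 against 12.4%, and other spellings of the TATA box were not searched. CCAAT was found in Srsf2, Srsf3 and Srsf10, which are 3 of 10 against 33.9%. No member held the E-box, against 6.02%. The member promoters were rich in GC, with a median of 66.8% against 52.4% over all promoters, and held a median of 29 CpG dinucleotides against 6. The shares over all promoters were not matched for this composition, so the motif counts are not read as a feature of the family. By the gene coordinates given below, the whole Srsf10 window lies inside the gene, and the Srsf4 and Srsf11 windows reach into theirs. The RefSeq starts of these genes lie within those coordinates. These matches describe letters and not occupied sites.

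SR transcripts were abundant in every library. At 1 h the family summed to 1941 and 1834 TPM, and in replicates 13, 14 and 15 at 8 h it summed to 2004, 1675 and 2099 TPM, which was 1887 ± 75.7 TPM (SD, n = 2) against 1926 ± 222 TPM (SD, n = 3). The ranges overlapped, and the sum was between 0.168 and 0.210% of all TPM. Each member's mean lay at or above the 82.9th percentile of the 13870 genes whose mean TPM reached 1. Over the 5 libraries the order of the means was Srsf3 (375 TPM), Srsf2 (326 TPM), Srsf5 (253 TPM), Srsf6 (226 TPM), Srsf11 (179 TPM), Srsf7 (154 TPM), Srsf9 (141 TPM), Srsf10 (93.8 TPM), Srsf1 (86.7 TPM) and Srsf4 (75.9 TPM). Neighbours in this order overlapped in their range over libraries, except Srsf9, with a lowest value of 126 TPM, and Srsf10, with a highest value of 117.9 TPM.

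**Figure D1:**
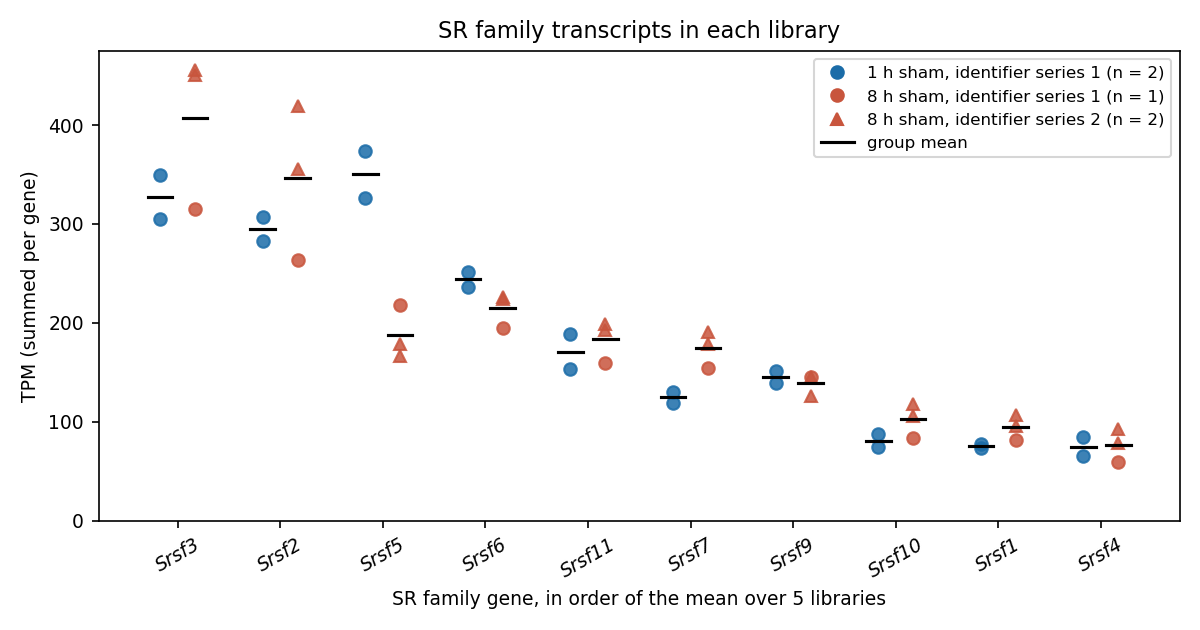
TPM of each family gene (vertical axis, linear) in each library, with genes along the horizontal axis in order of their mean, 1 h libraries in blue and 8 h libraries in red, circles for identifier series 1, triangles for series 2 and bars for group means. Srsf5 is the gene whose 8 h points (166 to 218 TPM) lie farthest below its 1 h points (326 and 374 TPM), and for Srsf2, Srsf3 and Srsf10 the 8 h circle lies close to the 1 h circles.

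Srsf5 was lower and Srsf7 higher in every 8 h library than in both 1 h libraries, but no member passed the test after adjustment over all genes. The difference was tested with limma on log2(TPM + 1) over 13870 genes, with Benjamini-Hochberg adjustment, and a call required an adjusted p no higher than 0.05 and an absolute log2 fold change above 1. Of all genes 0.0433% (6) were called, and 0 of the 10 members. At an unadjusted p under 0.05, 1 member (Srsf7) was higher at 8 h, against 9.52% of all genes, and 1 member (Srsf5) was lower, against 2.82%. The groups did not overlap in 2 members that were higher at 8 h (Srsf1 and Srsf7), against 23.7% of all genes, and in 2 that were lower (Srsf5 and Srsf6), against 9.43%. The median log2 fold change of the members was 0.16, beside 0.10 over all genes tested. Scaling the libraries by median ratios brought the median of all genes to 0.0018 and that of the members to 0.049, and Srsf4 and Srsf11 then changed sign.

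Srsf5 is an SR protein with a second RNA-recognition motif, first described in liver as a growth-response gene. Its gene (ENSMUSG00000021134, chr12:80945504-80950507, plus strand) stood at 374 and 326 TPM at 1 h, beside 179, 218 and 166 TPM in replicates 13, 14 and 15 at 8 h. The groups did not overlap, and the 8 h library of series 1 was the highest of the 8 h libraries. The means were 350.1 ± 33.7 TPM (SD, n = 2) and 188 ± 26.9 TPM (SD, n = 3), a ratio of 0.536. The log2 fold change was −0.90 ± 0.14 (SE), with a 95% interval from −1.25 to −0.55. The gene missed both thresholds of a call, that on fold change and that on p, with an adjusted p of 0.24 (limma). By its unadjusted p of 0.00076 (limma) it was the 38th of 13870 genes, and its log2 fold change was at the 0.887th percentile.

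Srsf5 also held a different place within the family at the 2 times. By TPM it was the most abundant member in both 1 h libraries, and Srsf3 was in all 8 h libraries. There Srsf5 came 5th in replicate 13, 3rd in replicate 14 and 6th in replicate 15. Its share of the summed family TPM was 19.3 and 17.8% at 1 h and 8.92, 13.0 and 7.93% at 8 h. The ratio of Srsf5 to Srsf3 was 1.07 in both 1 h libraries and 0.397, 0.691 and 0.366 at 8 h, and that of Srsf5 to Srsf7 was 2.87 and 2.75 at 1 h and 1.00, 1.42 and 0.874 at 8 h. Both ratios were lower in the 8 h libraries of either identifier series, and a ratio within a library shows unequal levels without saying which gene moved. In mean read coverage per base, a measure taken up below, Srsf5 was not first at 1 h. It stood at 368 and 369, beside 454 and 468 for Srsf3, 417 and 526 for Srsf2, and 408 and 450 for Srsf6. Srsf7 stood at 321 and 349. The place, shares and ratios given here thus hold for TPM.

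**Figure D2:**
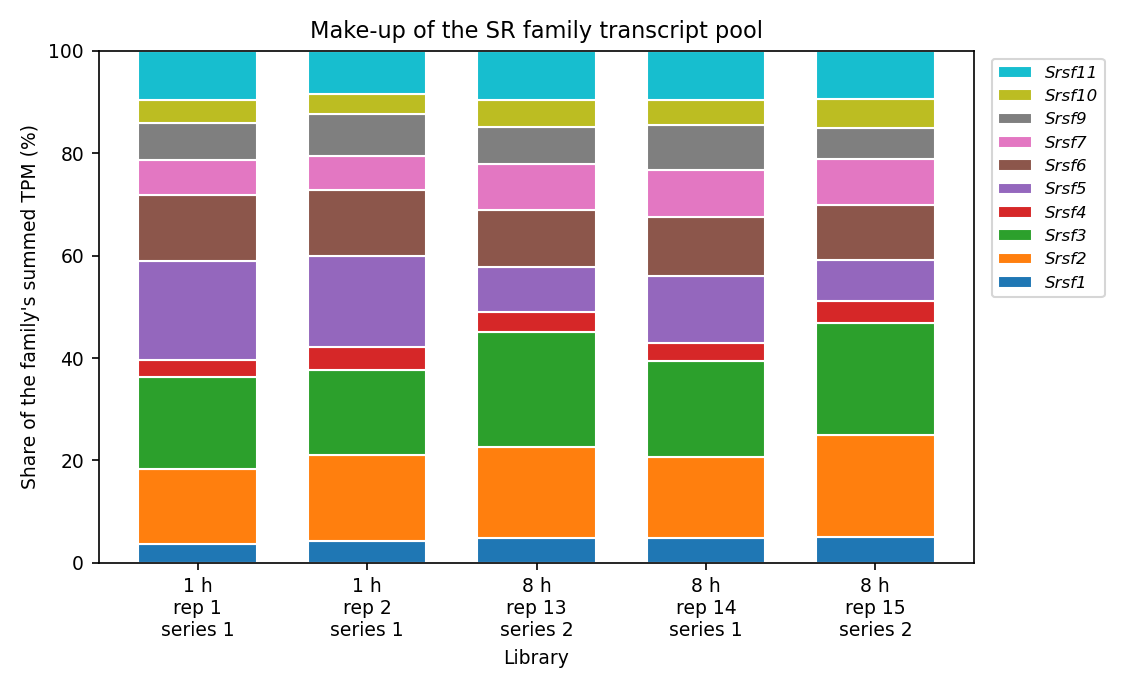
Share of the summed family TPM (%, vertical axis) held by each gene in each library (horizontal axis, with time, replicate and identifier series), stacked from Srsf1 at the bottom to Srsf11 at the top. The Srsf5 segment takes 19.3 and 17.8% in the 1 h libraries and between 7.93 and 13.0% in the 8 h libraries.

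The other members with a second RNA-recognition motif differed less. Srsf1 (ENSMUSG00000018379, chr11:88047373-88053755, plus strand), the founding splicing factor of the family, stood at 73.1 and 77.4 TPM at 1 h and at 95.4, 81.1 and 107 TPM at 8 h. The groups did not overlap, and the 8 h value nearest to 1 h was that of replicate 14. Its log2 fold change was 0.31 ± 0.14 (SE), with an interval from −0.017 to 0.65 and an adjusted p of 0.408 (limma).

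Srsf6 (ENSMUSG00000016921, chr2:162931528-162937121, plus strand), a close relative of Srsf4 and Srsf5, stood at 252 and 236 TPM at 1 h and at 224, 195 and 226 TPM at 8 h. The groups did not overlap, with replicate 14 the lowest. Its log2 fold change was −0.19 ± 0.11 (SE), with an adjusted p of 0.466 (limma). Srsf4 (ENSMUSG00000028911, chr4:131873617-131901706, plus strand) stood at 65.5 and 84.3 TPM at 1 h and at 78.0, 59.6 and 92.3 TPM at 8 h, so that the 1 h values lay within the 8 h range. Srsf9 (ENSMUSG00000029538, chr5:115327177-115333080, plus strand), which resembles Srsf1 with a short arginine-serine tail, stood at 139 and 151 TPM at 1 h and at 145, 145 and 126 TPM at 8 h. Neither gene separated the groups, with log2 fold changes of 0.023 ± 0.21 (SE) for Srsf4 and −0.066 ± 0.11 (SE) for Srsf9.

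Srsf7, Srsf3 and Srsf2 carry a single RNA-recognition motif. Srsf7 (ENSMUSG00000024097, chr17:80200089-80207305, minus strand), which also has a zinc knuckle and acts in mRNA export, stood at 130.5 and 119 TPM at 1 h and at 178, 154 and 190.5 TPM at 8 h. All 8 h libraries lay above both 1 h libraries, and replicate 14 was the closest to them. The means were 125 ± 8.38 TPM (SD, n = 2) and 174 ± 18.7 TPM (SD, n = 3), a ratio of 1.40. The log2 fold change was 0.48 ± 0.12 (SE), with an interval from 0.18 to 0.77. The gene missed both thresholds of a call, with an adjusted p of 0.309 (limma).

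Srsf3 (ENSMUSG00000071172, chr17:29032673-29043366, plus strand), the smallest SR protein and an adaptor for mRNA export, stood at 349 and 305 TPM at 1 h and at 450.2, 315 and 455 TPM at 8 h. Replicates 13 and 15 were above the 1 h libraries and replicate 14 was between them. Its log2 fold change was 0.30 ± 0.19 (SE), with an adjusted p of 0.489 (limma). Srsf2 (ENSMUSG00000034120, chr11:116849901-116853094, minus strand), a marker protein of nuclear speckles that also acts in transcription elongation, stood at 282 and 307 TPM at 1 h and at 356, 264 and 419 TPM at 8 h. The 8 h values lay on both sides of the 1 h values, and the log2 fold change was 0.21 ± 0.20 (SE), with an adjusted p of 0.62 (limma).

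Srsf10 (ENSMUSG00000028676, chr4:135855747-135869908, plus strand) represses splicing when it loses its phosphates, as after heat shock, and Srsf11 (ENSMUSG00000055436, chr3:158010473-158036639, minus strand) is a more distant relative. Srsf10 stood at 87.0 and 74.2 TPM at 1 h and at 106, 83.9 and 117.9 TPM at 8 h, with replicate 14 between the 1 h libraries. Srsf11 stood at 188 and 153 TPM at 1 h and at 193, 159.6 and 199 TPM at 8 h, with replicate 14 again between them. Their log2 fold changes were 0.33 ± 0.17 (SE) for Srsf10 and 0.11 ± 0.14 (SE) for Srsf11, with adjusted p-values of 0.435 and 0.727 (limma).

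The identifier series moved with these differences. Taken against all series 1 libraries, both series 2 libraries were higher in 6 members (Srsf1, Srsf2, Srsf3, Srsf7, Srsf10 and Srsf11), against 39.8% of all genes, and lower in 1 (Srsf5), against 13.5%. The ratios of the series means were 1.31 for Srsf1, 1.36 for Srsf2, 1.40 for Srsf3, 1.37 for Srsf7, 1.37 for Srsf10, 1.17 for Srsf11 and 0.564 for Srsf5. The summed level of 10 proliferation genes moved the same way, with 2083 and 2093 TPM at 1 h beside 3525, 2213 and 3605 TPM in replicates 13, 14 and 15 at 8 h. Its part in the member values was not tested.

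With the identifier series as a term in the fit, which sets 8 h replicate 14 against the 1 h libraries, Srsf5 had a log2 fold change of −0.68 ± 0.12 (SE, adjusted p = 0.243, limma). Srsf7 was at 0.30 ± 0.11 (SE) and Srsf6 at −0.32 ± 0.10 (SE), with adjusted p-values of 0.51 and 0.432 (limma). These were the 3 members with an unadjusted p under 0.05 in that fit, 1 higher against 4.98% of all genes and 2 lower against 4.08%. Srsf2, Srsf3, Srsf4 and Srsf11 were then at −0.16, −0.049, −0.31 and −0.090, below 0 where the fit without the term put them above it, while Srsf9 was at 0.00067, and Srsf1 and Srsf10 were at 0.11 and 0.061.

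Without 8 h replicate 14, time and identifier series coincide and cannot be told apart. Srsf5 was then called, with a log2 fold change of −1.01 and an adjusted p of 0.00407 (limma), against 4.1% of all genes called (568 of 13870). At an adjusted p of at most 0.05 with no limit on fold, 4 members were higher in the later libraries, against 15.7% of all genes, and Srsf5 alone was lower, against 4.22%. The 4 were Srsf1 (0.42, adjusted p = 0.0354, limma), Srsf3 (0.47, adjusted p = 0.0231, limma), Srsf7 (0.56, adjusted p = 0.0146, limma) and Srsf10 (0.47, adjusted p = 0.0397, limma).

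**Figure D3:**
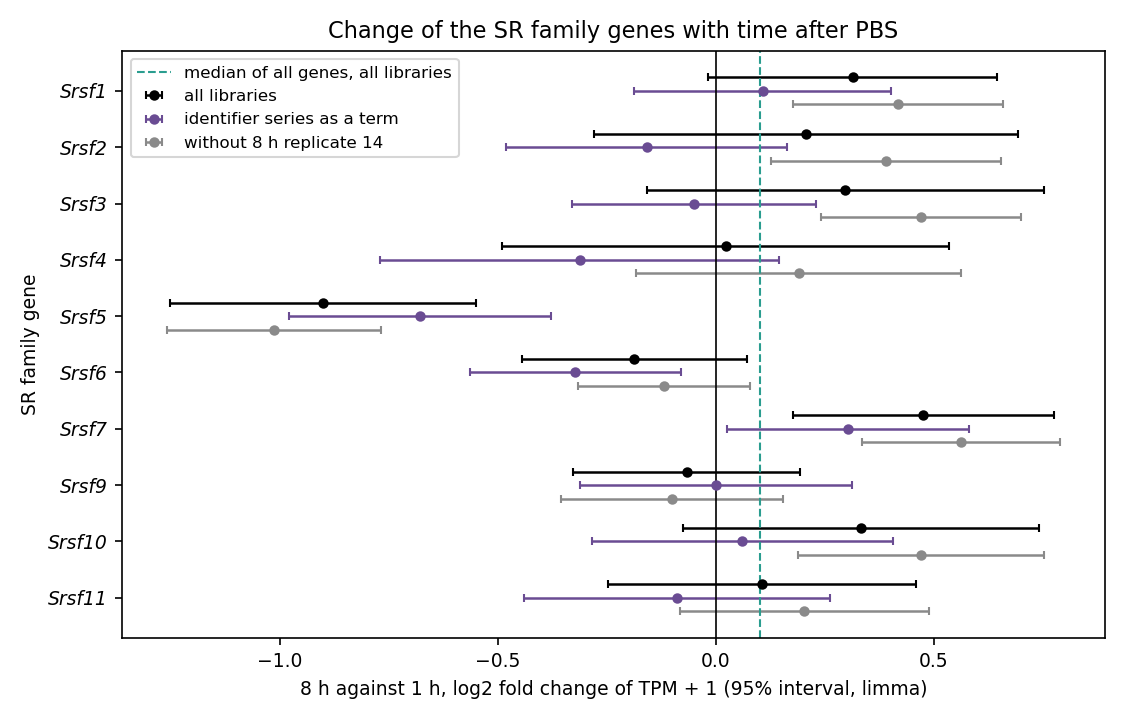
Log2 fold change of TPM + 1 at 8 h against 1 h (horizontal axis, points with 95% intervals from limma) for each family gene (vertical axis), fitted on all libraries (black), with the identifier series as a term (purple) and without 8 h replicate 14 (grey), and the dashed line marks the median of all genes at 0.10. Srsf5 lies below 0 in all 3 fits (−0.90, −0.68 and −1.01) and Srsf7 above 0 (0.48, 0.30 and 0.56), while Srsf2, Srsf3, Srsf4, Srsf9 and Srsf11 cross 0 between fits. The purple points rest on replicate 14 as the only 8 h library of series 1, and their intervals do not measure spread between such libraries.

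The tables also give a mean read coverage per base of each gene, which for the members ran from 65.1 to 707. Divided by FPKM and by the value common in that library, coverage was within 0.01 of 1 in at least 99.1% of genes with a single annotated transcript, and genes with several transcripts had medians between 0.619 and 0.627. The members differed widely from each other. Srsf7 was at 1.00 in every library, Srsf1, Srsf6, Srsf4 and Srsf2 had means of 0.677, 0.654, 0.642 and 0.590, Srsf3 was at 0.523, Srsf5 at 0.409, Srsf10 at 0.361, Srsf9 at 0.280 and Srsf11 at 0.147. Coverage scaled by depth thus gave another order of levels, with Srsf3 (84.4), Srsf2 (82.7) and Srsf7 (66.4) first and Srsf11 (11.3) last, in units of coverage per unit of depth. The order of levels between members therefore depended on the measure.

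Between time points the ratio of coverage to FPKM moved little. For Srsf10 it was 0.340 and 0.343 at 1 h and 0.370, 0.376 and 0.376 at 8 h, with no overlap, which held for 1 member in this direction against 11.8% of 9210 genes with several transcripts. In the other direction there were 0 members against 7.83%. For Srsf5 it was 0.400 and 0.385 at 1 h and 0.397, 0.420 and 0.440 at 8 h, and for Srsf1 0.664 and 0.641 at 1 h and 0.712, 0.647 and 0.723 at 8 h, where the series 2 libraries were the highest. With coverage in place of TPM, a choice made after the data were seen, Srsf5 had a log2 fold change of −0.85 and Srsf7 of 0.41, with adjusted p-values of 0.223 and 0.268 (limma).

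**Figure D4:**
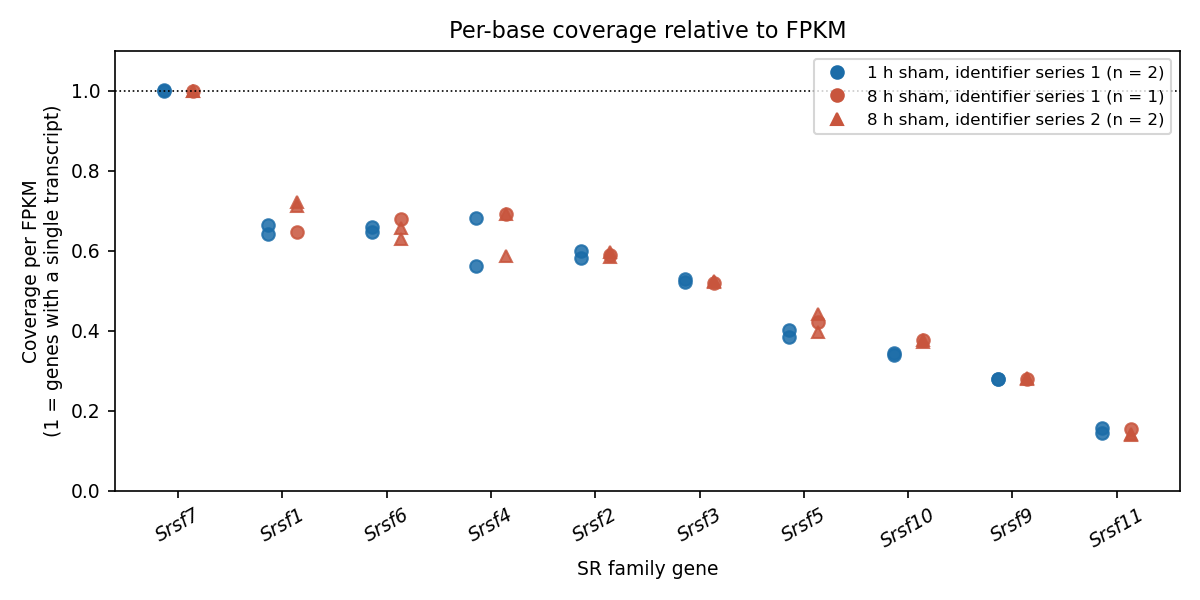
Mean per-base coverage divided by FPKM, scaled so that genes with a single transcript stand at 1 (vertical axis, dotted line at 1), for each family gene (horizontal axis) in each library, with 1 h libraries in blue, 8 h libraries in red, circles for series 1 and triangles for series 2. Srsf7 lies at 1.00 and Srsf11 near 0.147, and the libraries of a gene lie close together next to the distance between genes.

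In the annotation (GENCODE vM21) 9 of 10 members have a transcript marked for nonsense-mediated decay, all but Srsf10, and 8 of 10 have one with a retained intron, all but Srsf9 and Srsf10. The number of annotated transcripts ran from 4 (Srsf4 and Srsf6) to 19 (Srsf11). Gene coordinates in this annotation equal those given above for 8 of 10 members and differ for Srsf3 and Srsf7. Its transcripts may therefore not be those behind the levels. The tables hold 1 level per gene and give no level of a transcript. A second identifier named Srsf1 was at 0 TPM in every library.

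Some members have near-identical copies, so that reads may have been shared between loci and levels are uncertain. Copies were sought at 95% identity over at least 200 bases, and the copies named here were found by that search. For Srsf3, the processed pseudogene Gm9761 (99.6% over 492 bases) stood at 48.0 and 45.5 TPM at 1 h and at 63.6, 44.3 and 67.1 TPM at 8 h. Gm12355 (98.3% over 1298 bases) stood at 24.7 and 23.9 TPM at 1 h and at 36.1, 23.2 and 40.2 TPM at 8 h. Both were highest in the series 2 libraries, where Srsf3 itself was highest. The copy of Srsf5, Gm12966, had a mean of 4.90 TPM and those of Srsf10, Gm5446 and Gm9134, had means of 1.26 and 1.79 TPM. The exons of Srsf2 overlap those of Mettl23 (mean 30.2 TPM) and Mfsd11 (mean 19.3 TPM), whose reads can be told apart from those of Srsf2 only where strand was used. No row carried the name of an Srsf pseudogene.

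The count table listed 8 members, without Srsf3 and Srsf11, among 7599 genes, and its 8 h columns did not follow the TPM tables of the same names. Of 6860 genes with sufficient counts, 79.1% of the column named 8 h replicate 13 lay within 0.1 log2 of the table of replicate 14 and 25.7% of its own. The column named 8 h replicate 15 matched the table of replicate 13 in 79.1% and its own in 42.2%. That was also the best match of any column to the table of replicate 15. For the column named 8 h replicate 14 the best match to any table was 41.3%, to that of 1 h replicate 2. Its matches to the 8 h tables ran from 21.7 to 26.4%. The columns are therefore not known to hold the same 8 h libraries as the TPM tables. The 8 h columns are given here by their names. The identifier series rest on the same names, so if the tables and not the columns were misnamed, the series of the 8 h TPM tables would differ from those used here. The columns summed to between 13988166 and 18572154 counts.

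In this table Srsf5 and Srsf6 were the members whose groups did not overlap, both lower at 8 h (2 of 8, against 7.05% of all genes), and 0 were higher (against 11.6%). Its 8 h group rests on the column names, and the column named replicate 14 matched no 8 h TPM table above 26.4%. The series term used below puts the column named 8 h replicate 13 in series 2. That column best matched the TPM table of replicate 14, of series 1. Neither the groups nor that term are known to repeat those used for TPM. Srsf5 had 544 and 490.3 CPM (counts scaled to the column total) at 1 h and 374, 464 and 297 CPM at 8 h. Its log2 fold change was −0.48 ± 0.19 (SE), with an adjusted p of 0.966 (edgeR). Srsf6 had 595 and 562 CPM at 1 h and 467, 517 and 452 CPM at 8 h, with a log2 fold change of −0.30 ± 0.10 (SE) and the same adjusted p of 0.966 (edgeR). These were the 2 members with an unadjusted p under 0.05 by edgeR, both lower, against 1.33% of genes lower and 1.29% higher. With a term for the series read from the column names, 0 members had such a p, with Srsf5 at −0.19 ± 0.19 (SE) and Srsf6 at −0.20 ± 0.12 (SE). There were also 0 when either 1 h column was left out, and without the column named 8 h replicate 13 Srsf6 alone remained under 0.05.

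Srsf7 had 237 and 217 CPM at 1 h and 269, 227 and 288 CPM at 8 h, so that the groups overlapped, with a log2 fold change of 0.18 ± 0.13 (SE). The log2 fold changes of Srsf1, Srsf2, Srsf4, Srsf9 and Srsf10 lay between −0.054 and 0.11, each smaller than its standard error. In the count table edgeR called 0 of 7590 genes (199 at an unadjusted p under 0.05), and DESeq2 called 0 (227 at an unadjusted p under 0.05).

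Genes that act with the family were read from 6 lists, and none of their genes passed the adjusted test with all libraries in the fit. Without 8 h replicate 14, when time and identifier series coincide, 5 hnRNP genes, 3 tissue-regulated factors, 2 genes of the kinase and import list and 1 gene in each of the other 3 lists passed it, against 19.9% of all genes (limma). The kinases and the import receptor of SR proteins numbered 9, with 2 higher and 0 lower by the unadjusted threshold of 0.05 (against 9.52% and 2.82% of all genes, which holds for the lists that follow too). Their median log2 fold change was 0.11, beside 0.10 over all genes. The import receptor Tnpo3 had mean levels of 84.0 ± 5.02 TPM (SD, n = 2) after 1 h and 86.5 ± 10.9 TPM (SD, n = 3) after 8 h, and the kinases Clk4 and Prpf4b came next, with log2 fold changes of −0.060 and 0.19. Clk2 and Clk3, named after their values were seen, had log2 fold changes of 0.52 and 0.34, with adjusted p-values of 0.288 and 0.369 (limma).

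Of 14 SR-related and speckle proteins 2 were higher and 0 lower by that threshold, with a median of 0.12. The most abundant were Rnps1 of the exon junction complex, the speckle protein Son and the speckle scaffold Srrm2, with log2 fold changes of 0.16, −0.35 and 0.020. The 2 higher genes, named after their values were seen, were Tra2a, a relative of the SR proteins (0.28, adjusted p = 0.388, limma), and Luc7l3, a U1-associated protein (0.48, adjusted p = 0.309, limma).

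The hnRNP proteins, which often oppose SR proteins at exons, numbered 24, of which 0 were higher and 1 was lower at an unadjusted p under 0.05, with a median of 0.12. Hnrnpa1, Hnrnpa3 and Hnrnpk were the most abundant, with log2 fold changes of 0.15, 0.25 and −0.10. The lower gene, named after its value was seen, was Syncrip (hnRNP Q), with 152 ± 11.8 TPM (SD, n = 2) after 1 h, 94.2 ± 11.5 TPM (SD, n = 3) after 8 h and an adjusted p of 0.262 (limma).

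Among 22 core proteins of the U1 and U2 particles 1 was higher at an unadjusted p under 0.05 (Sf3a3, 0.25, named after its value was seen), and the median was 0.090. U2af2, Snrpe and Snrpd2 were the most abundant, with log2 fold changes of 0.16, 0.40 and −0.14. Of 10 nonsense-mediated decay factors 0 had an unadjusted p under 0.05 and the median was 0.012, with Smg5 and Upf3a the most abundant at −0.023 and 0.038. In the list named tissue-regulated splicing factors, 0 of 16 tested genes, out of 17, had an unadjusted p under 0.05. The median was −0.037, with Qk, Khdrbs1 and Celf1 the most abundant at −0.080, −0.21 and 0.067. The 10 proliferation genes, read as a comparison, had a median of 0.57, with 10 above 0 and 1, the cyclin gene Ccnd1, at an unadjusted p under 0.05 (0.52, adjusted p = 0.365, limma). Pcna and Top2a, the next in abundance, were at 0.25 and 0.72. With the identifier series as a term the proliferation median was −0.10, with 2 genes above 0 and 8 below it.

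**Figure D5:**
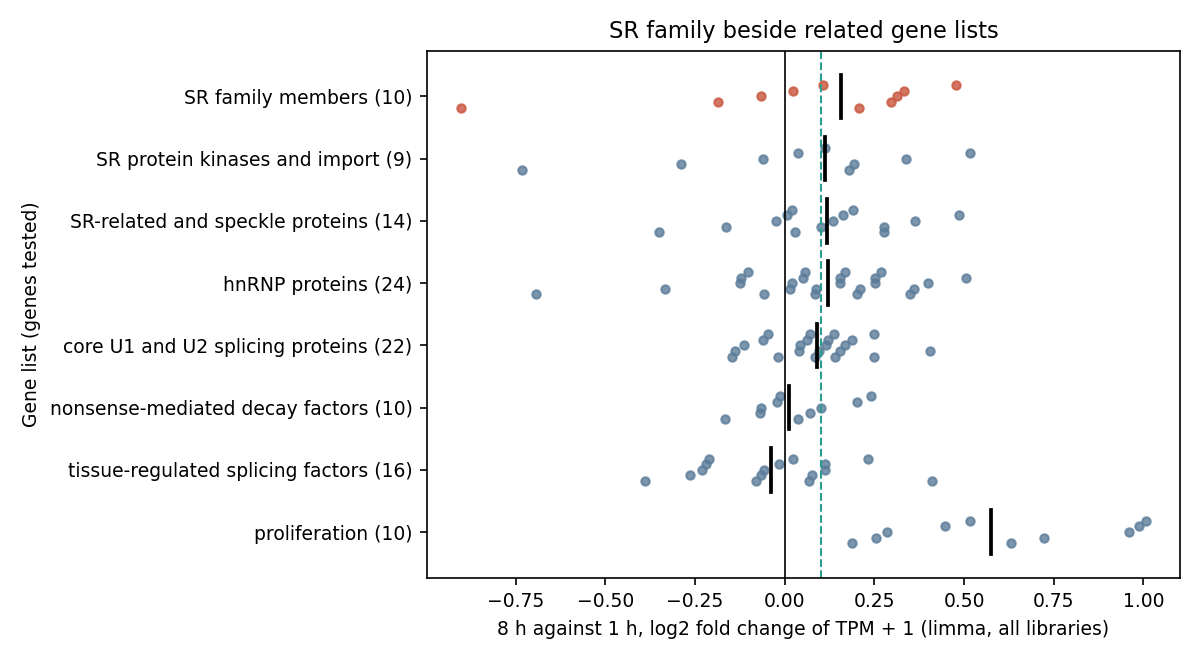
Log2 fold change of TPM + 1 at 8 h against 1 h (horizontal axis, limma on all libraries) for each gene (points) of the family (red) and of 7 other lists (blue), with the number of genes tested beside each list name, black bars for list medians and a dashed line for the median of all genes at 0.10. The family spans −0.90 (Srsf5) to 0.48 (Srsf7) around a median of 0.16, and the proliferation list, with a median of 0.57, lies wholly above 0 in this fit, while its median is −0.10 with the identifier series as a term.

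The genes whose pattern over the libraries was most like the summed family were searched among 8898 genes. By Pearson's r over the 5 libraries they were Strn3 (0.997), Pcca (0.997), Pigm (0.996), Rps15a-ps7 (0.996) and Adamts3 (0.996). Strn3 stood at 67.7 and 58.0 TPM at 1 h and at 71.7, 45.0 and 79.2 TPM at 8 h, lowest in replicate 14 as the family sum was. With 5 libraries of which 2 share a series apart, such values describe a shared order and no more.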

How the data were processed

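The authors aligned paired reads of stranded, poly-A selected libraries to GRCm38 with STAR and counted them per gene with featureCounts, within the nf-core/rnaseq workflow. The deposited count table holds raw whole-number counts and lists part of the genes. For each library the authors deposited gene tables with TPM, FPKM and mean per-base coverage, and the step of that workflow that made them is not named in the sources used here. Per the labels, bcl2fastq 2.19.1.403 and DESeq2 are among the tools. No value column was left unassigned (0).

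TPM was summed per gene identifier. Genes whose mean TPM reached 1 were tested on log2(TPM + 1), a scale that understates the change of low genes, with limma 3.58.1 (R 4.3.3, intensity trend, Benjamini-Hochberg over all genes). Counts were tested with edgeR 4.0.16 (quasi-likelihood, TMM, filterByExpr), with DESeq2 1.42.0 as an alternative. FPKM served only for the ratio of coverage to it. Coverage served for that ratio and, scaled by depth, as an alternative measure of level and of fold change. The tests were run on simulated counts that held large changes and no difference between series, with limma on counts scaled to the column total. That check does not bear on changes as small as those of the members, or on the part of the series. Promoters came from RefSeq, transcripts from GENCODE vM21 and copies from blastn 2.17.0. Total counts per column limit precision, and depth of the TPM tables is known only in relative terms.

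All members are named. In each related list the 3 genes of highest mean TPM are named, except 1 that is not reported here, and outside the family the 5 genes most like its sum (mean TPM of at least 10). The members and lists were chosen with earlier results of these data known.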

Additional observations from a re-analysis of the deposited data

How the results depend on the processing

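No paired analysis was possible because the groups share no replicate number. Of 110 alternative values of the members' TPM fold changes, 92 kept direction and side of the threshold, 17 changed sign and 1 (Srsf5) became called, and of 72 count values 59 kept both and 13 changed sign. Srsf5, Srsf6 and Srsf10 kept their TPM direction in every alternative, as did Srsf1 and Srsf7. The number of members called was 0 except without 8 h replicate 14 (1), so its leave-one-out range was 0 to 1. The number of all genes called was 6, 0 with no filter on low values (2447 at an unadjusted p under 0.05), 19 with the identifier series as a term, and 0 to 568 with 1 library left out (limma). The settings with 0 had 773, 670 and 856 genes at an unadjusted p under 0.05 without 1 h replicate 1, 1 h replicate 2 and 8 h replicate 15. Without 8 h replicate 13 it was 1. In the 7 related lists, proliferation included, 0 genes passed the adjusted test, against 0 to 22 with 1 library left out, the 22 without 8 h replicate 14 (9 of them proliferation genes). The order of levels kept 9 neighbour pairs by definition and 4 of them in 1 h replicate 2.

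Signs turned as follows. With the identifier series as a term, or in series 1 alone, Srsf2 was at −0.16, Srsf3 at −0.049, Srsf4 at −0.31, Srsf9 at 0.00067 and Srsf11 at −0.09. With median-ratio scaling Srsf4 was at −0.084 and Srsf11 at −0.0016, and with coverage in place of TPM Srsf11 was at −0.0091. With 1 library left out Srsf4 ran from −0.16 to 0.20 and Srsf11 from −0.041 to 0.25. The proliferation median turned to −0.10 with the series term. In the count table, with a term for the series read from column names, Srsf1 was at −0.15, Srsf7 at −0.035, Srsf9 at −0.053 and Srsf10 at −0.25. With 1 column left out Srsf1 ran from −0.013 to 0.24, Srsf2 from −0.083 to 0.047, Srsf4 from −0.11 to 0.0057, Srsf9 from −0.033 to 0.13 and Srsf10 from −0.02 to 0.24. The cause was not tested. Where 1 library is left out of the 1 h group, its lone sample is taken to vary as the 8 h libraries do. The lone 8 h library in series 1 alone is likewise taken to vary as the 1 h libraries do. With the series as a term, in TPM or counts, the lone 8 h library of series 1 is taken to vary as the other libraries do.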

Other observations

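Srsf12, a brain-enriched relative that is not among the members, stood at 1.55 and 3.29 TPM at 1 h and at 3.83, 3.26 and 2.74 TPM at 8 h, far below every member. The groups overlapped.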
